A study of Mus musculus with 4 samples.

Results

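A set of 437 autosomal CpGs was covered by at least 1000 reads in every library of a reduced representation bisulfite sequencing (RRBS) series from mouse embryonic fibroblasts (MEFs), out of 2057290 CpGs listed in any library. They were chosen by depth alone: both read counts of a CpG, methylated and unmethylated, were summed and the sum had to reach 1000 in each of 4 libraries. Depth is therefore a description here and carries no test, while methylation was not used in the choice. In the reads and levels below, a member is one of these 437 CpGs, a run is a stretch of members at most 100 bp apart, and a block is a stretch of members at most 1000 bp apart.

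The series asked how DNA methylation changes in the first days of reprogramming and with cell division. All cells were secondary, inducible MEFs of a 129/SvJ x C57/B6 hybrid, grown in medium with 10% serum. The library labelled 0-division came from cells given doxycycline for 96 hours, which switches on their reprogramming factors, that had divided 0 times on average. The 1-division library came from cells with the same 96 hours and 1 division on average, and the >3-division library from cells with the same 96 hours and, by its cohort label, more than 3 divisions (another label of that sample counts 3 itself in). The control library came from uninduced MEFs. The protocol names a doxycycline medium at 15% serum and a starvation medium at 0.5% serum, and does not tie either serum level to a cohort. There was 1 library per group, so no spread between replicates exists, every p below compares 2 libraries and not conditions, and pooled cells stand behind each value.

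RRBS cuts DNA with the enzyme MspI, which recognises sites that hold a CpG, keeps short fragments (40 to 220 bp here) and converts unmethylated cytosines with bisulfite. Sequences that a genome carries in many copies but an assembly holds in few, such as ribosomal RNA genes and satellites, gather the reads of all copies at few positions, and their level is then a mean over copies. CpG methylation is common in repeats and uncommon in CpG-dense promoters, and ribosomal RNA genes are known to exist in methylated and unmethylated copies in the same cell. Copy number was not measured, so the members are called deeply covered throughout, and no gene or repeat name is attached to any position.

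Summed over CpGs, the libraries held between 84606824 and 94775128 reads at 1734328 to 1807769 CpGs each. A read that covers several CpGs is counted at each of them, here and in all shares of reads below. Such shares thus give CpG-dense stretches more weight than shares of sequenced reads would. Methylated reads made up 44.4% of all reads in control MEFs, 44.6% at 0 divisions, 43.5% at 1 division and 26.0% beyond 3 divisions. This share weights each CpG by its depth. With equal weight per CpG, over the 1045368 CpGs with at least 10 reads in every library (the CpGs tested), the >3-division library stood closer to the others. The mean level there was 42.4% in control MEFs, 42.7% at 0 divisions, 42.5% at 1 division and 38.8% beyond 3 divisions. A listed CpG had a median coverage of 35, 28, 34 and 24 reads in the same order. In the >3-division library, depth relative to control also differed with the level: outside the members, autosomal CpGs with at least 100 reads had a median depth ratio (a CpG's share of the >3-division reads over its share of the control reads) of 1.60 where control was under 20% methylated and of 0.878 where control was at least 80% methylated.

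The 437 members took up 3.43% of all reads in control MEFs, 3.57% at 0 divisions, 3.69% at 1 division and 4.54% beyond 3 divisions. The median member had 4286 reads in control MEFs, 4231 at 0 divisions, 5474 at 1 division and 6636 beyond 3 divisions. That is 122, 151, 161 and 276 times the median listed CpG of the same libraries. The deepest member by reads summed over the 4 libraries lay at chromosome 2 position 98506659 (mm9, as are all positions here). It had 55631 reads in control MEFs, 24893 at 0 divisions, 22110 at 1 division and 20825 beyond 3 divisions. Within single libraries it was the deepest in control only. Other members reached 38805 reads at 0 divisions, 28027 at 1 division and 43138 beyond 3 divisions. Around the threshold, the 10 members with 1000 to 1099 reads in their shallowest library had a median level of 34.6% in control, and the 45 CpGs just outside, with 900 to 999, had 79.7%. Both groups were mixed: control levels ranged over 1.57 to 90.8% inside, with 5 of 10 under 20%. Outside they ranged over 0 to 94.3%, with 13 of 45 under 20%. Whether levels differ across the threshold was not tested.

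Members lay on 18 of 19 autosomes, with none on chromosome 18, in 70 runs and 52 blocks. Chromosome 17 alone held 246 of them, 56.3% of the members against 4.49% of all listed CpGs, and chromosomes 6, 16 and 1 held 33, 31 and 28. Of the 70 runs, 14 were single CpGs, 14 had 2 members, 31 had 3 to 9 and 11 had 10 or more, and those 11 held 238 members. Neighbours in a run were a median of 7 bp apart. The members sat in CpG-dense sequence: a median of 17 CpGs was listed within 100 bp on either side, against 8 for all CpGs tested, and 70.7% of the members had at least 12 such neighbours, against 36.5% of all CpGs tested.

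The largest block ran over 5696 bp of chromosome 17, from 39979958 to 39985653, and held 239 members (54.7% of the set) in 14 runs. It ended sharply in the listing: 2 CpGs were listed in the 1000 bp before it, with at most 25 reads in any library, and 0 in the 1000 bp after it. Within it, 497 CpGs were listed, of which 239 were members, 68 had 100 to 999 reads in their shallowest library, 23 had 10 to 99 and 167 had fewer than 10. Deep and shallow CpGs thus alternated within the block. Its members took up 2.29% of all reads in control MEFs, 2.29% at 0 divisions, 2.45% at 1 division and 3.08% beyond 3 divisions.

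**Figure D1:**
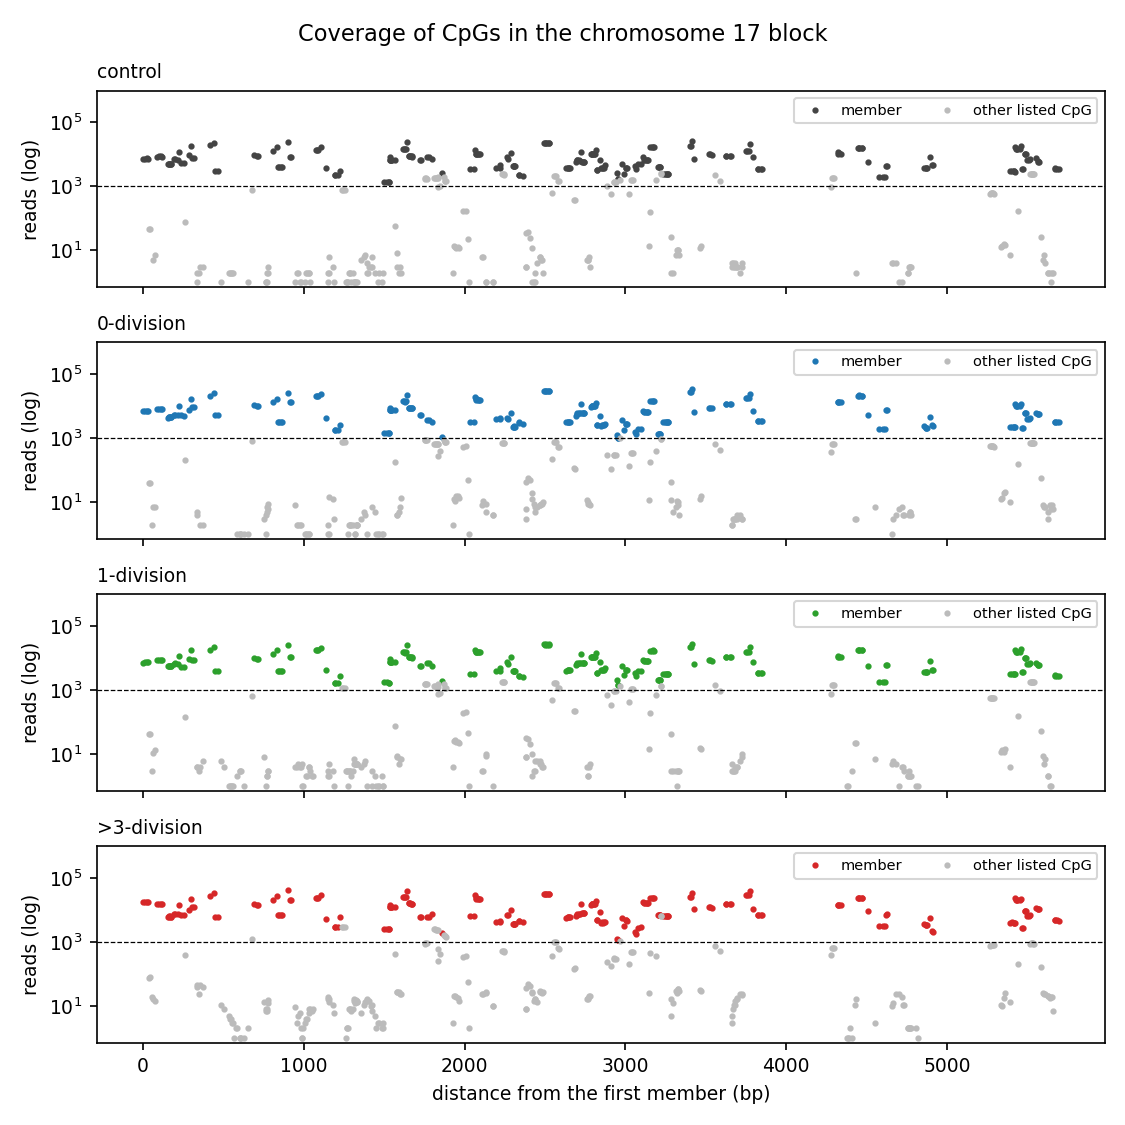
Reads per CpG on a log axis against the distance in bp from the first member of the chromosome 17 block, 1 panel per library; coloured points are the 239 members, grey points the other listed CpGs with at least 1 read, and the dashed line marks 1000 reads. Member coverage had a median of 6881 reads in control MEFs, 6062 at 0 divisions, 7110 at 1 division and 8224 beyond 3 divisions, and the other CpGs fell to single reads.

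Methylation in this block was low in all 4 libraries and lowest in the >3-division library. Mean levels over its 239 members were 5.39% in control MEFs, 6.70% at 0 divisions, 6.06% at 1 division and 1.58% beyond 3 divisions. The >3-division library was below control at 237 of 239 members and below the 0-division library at all 239. The median ratio of levels was 0.255 for >3-division over control. The 0-division library was above control at 227 of 239 members, by a median of 1.06 points, and the 1-division library at 204 of 239, by a median of 0.606 points.

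All 14 runs of the block shared this order of the >3-division library, the control and the 0-division library. The longest run, 64 members over 635 bp from 39982590 to 39983224, had a pooled level of 4.45% in control MEFs, 5.74% at 0 divisions, 5.16% at 1 division and 1.52% beyond 3 divisions. The run at 39980647 to 39980882, with 12 members, had the smallest >3-division share of its control level in the block, 0.817% in >3-division against 4.94% in control, a ratio of 0.165. At the other end, the 4 members at 39985629 to 39985653 had 4.96% in >3-division against 7.98% in control, a ratio of 0.621. The size of the difference thus varied over the block while its direction did not.

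In the block's shallower CpGs the >3-division difference from control was smaller, and those of the other doxycycline libraries were larger. The 68 CpGs with 100 to 999 reads averaged 5.10% in control MEFs, 8.64% at 0 divisions, 6.27% at 1 division and 4.18% beyond 3 divisions. There the >3-division library was lower than control at 52 of 68 CpGs and the ratio of mean levels was 0.818, against 0.294 for the 239 members. The 0-division library was 3.53 points above control there, against 1.32 points for the members, and the 1-division library 1.17 points, against 0.673 points for the members. Their median coverage was 1556 reads in control MEFs, 657 at 0 divisions, 1192 at 1 division and 784 beyond 3 divisions, so part of them missed the threshold through the depth of a doxycycline library. The part that the depth threshold plays in the members' difference was not tested.

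Within the block, a higher relative depth went with a lower level relative to control. Among its 188 members whose share of all library reads was at least as large in the >3-division library as in control, levels averaged 1.46% in >3-division against 5.55% in control, a difference of -4.09 points. Among the 51 members with a smaller share of the reads, they averaged 2.03% in >3-division against 4.76% in control, a difference of -2.73 points. Across the 239 members, which share libraries and lie side by side, the depth ratio and the difference in points had a Pearson r of -0.361 and a Spearman rho of -0.372. For the 0-division library the same r was -0.574. Among the 174 members outside the block that were under 20% in control, r was -0.521 for the 0-division library, -0.583 for the 1-division library and -0.0258 for the >3-division library.

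**Figure D2:**
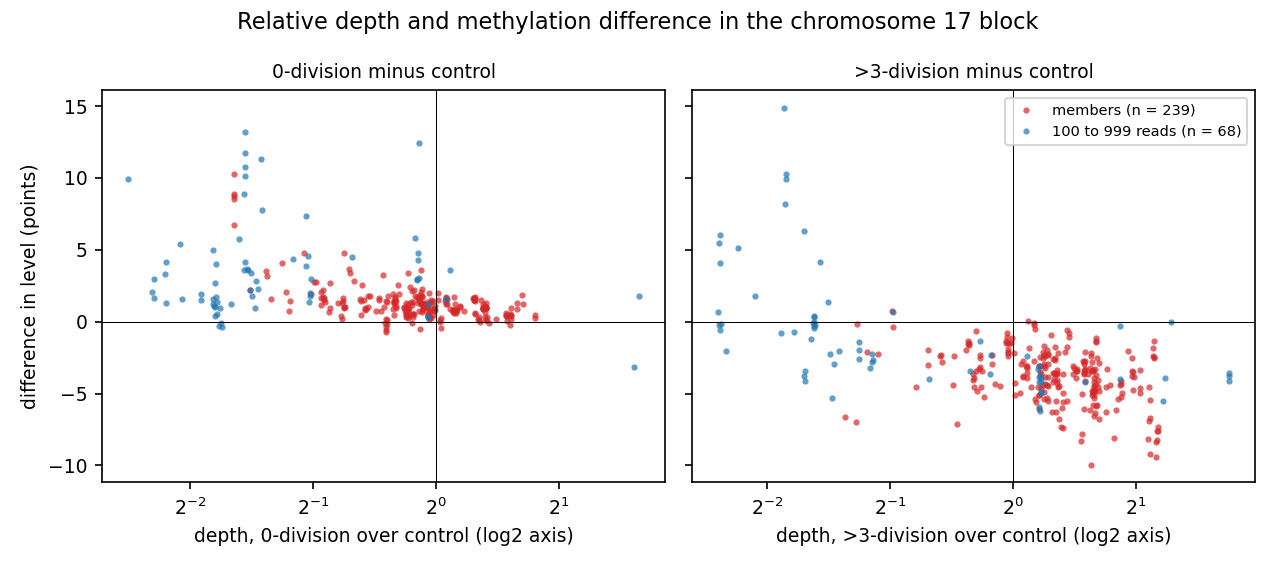
Difference in methylation level in percentage points against the depth ratio, the ratio of the CpG's share of its library's reads (log2 axis), for CpGs of the chromosome 17 block, 0-division against control on the left and >3-division against control on the right; red points are the 239 members and blue points the 68 CpGs with 100 to 999 reads. Most members lay below 0 in the right panel (237 of 239) and above 0 in the left panel (227 of 239), and the blue points reached higher at low depth ratios.

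Over all 437 members the mean level was 10.2% in control MEFs, 11.2% at 0 divisions, 10.7% at 1 division and 5.84% beyond 3 divisions. The medians were 5.36%, 6.26%, 5.98% and 1.62% in the same order. With reads pooled over members the levels were 8.82%, 9.04%, 8.21% and 2.75%, so the 1-division library then stood below control instead of above it. In control 413 members (94.5%) were under 20% methylated, 4 lay between 20 and 80% and 20 were at 80% or above, while 47.6% of all 1045368 CpGs tested were under 20% and 34.2% at 80% or above. Most members thus held a low level, and few were as highly methylated as is common among all CpGs tested.

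The 413 members under 20% in control averaged 2.07% in the >3-division library against 5.78% in control, a ratio of 0.358, and 403 of 413 were lower. The 174 of these outside the chromosome 17 block averaged 2.73% in >3-division against 6.31% in control, and 166 of 174 were lower. They include 10 chromosome 6 members whose CpG spacing matched the inside of the block, and 16 members of an array of matching runs (both described below). The 174 are thus not all independent measurements. The median depth ratio of all 413 was 1.35, which is below the 1.60 of shallower CpGs in the same range of level. Autosomal CpGs with at least 100 reads that were not members and were under 20% in control averaged 1.65% in >3-division against 2.08% in control (n = 63102), a ratio of 0.796. These also started from a lower level, so the ratios do not compare like with like.

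Against control, the >3-division ratio of levels was lower at higher coverage. The 0-division ratio was also lower at higher coverage up to 999 reads, but was higher again in the members. For autosomal CpGs under 20% in control, the >3-division ratio was 0.947 with 10 to 19 reads in the shallowest library. It was 0.807 at 100 to 199 reads, 0.731 at 200 to 499 reads, 0.458 at 500 to 999 reads and 0.358 for the members. The 0-division to control ratio was 1.96 at 10 to 19 reads, 1.21 at 100 to 199 and 1.09 at 500 to 999, and 1.18 for the members. All these CpGs were picked for a low control level, and the part of that choice in the ratios was not tested. Against 0-division, the >3-division ratio was 0.483 at 10 to 19 reads, 0.670 at 100 to 199, 0.420 at 500 to 999 and 0.302 for the members, so it did not move one way over the classes. The control level was 2.02% at 100 to 199 reads, 2.59% at 200 to 499 and 7.33% at 500 to 999 (n = 286), against 5.78% for the members. The 286 CpGs below the threshold thus resembled the members in control level and in direction, with 90.6% of them lower in the >3-division library than in control.

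**Figure D3:**
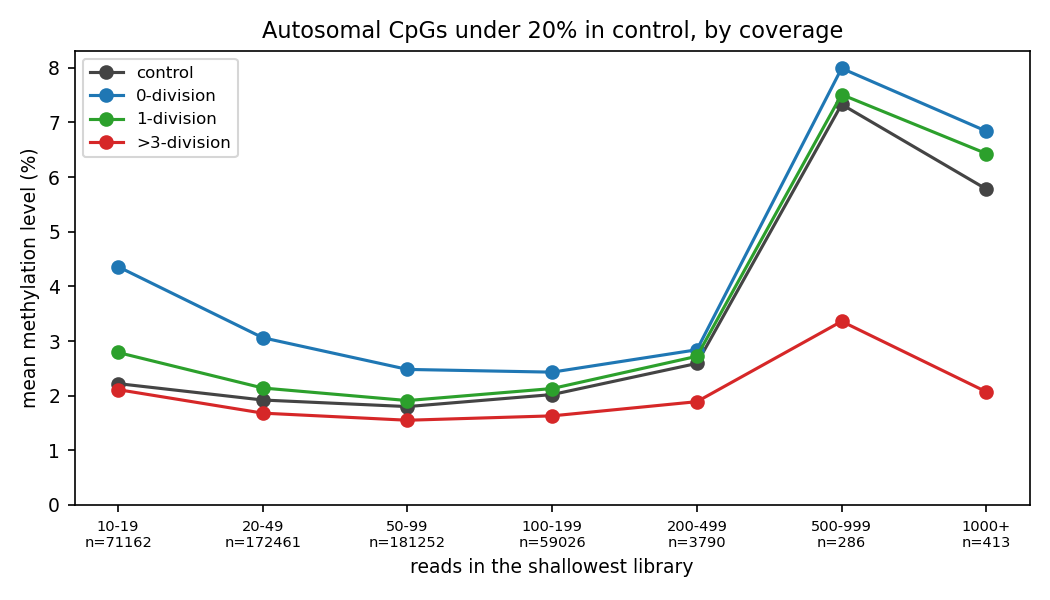
Mean methylation level in percent of autosomal CpGs under 20% in control, by reads in the shallowest library, 1 line per library, with the number of CpGs under each class. Control stood at 1.80 to 2.59% from 10 to 499 reads and at 7.33 and 5.78% in the 2 deepest classes, against which the >3-division levels were 3.36 and 2.07%.

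In the 0-division library the low members stood above control: the 413 averaged 6.84% in 0-division against 5.78% in control, and 355 of 413 were higher. In the 1-division library they averaged 6.43%, against 5.78% in control, and 321 of 413 were higher. A higher 0-division level was also present in all autosomal CpGs tested that were under 20% in control, 2.96% in 0-division against 1.94% in control (n = 488390). Among non-members with at least 100 reads it was 2.48% in 0-division against 2.08% in control (n = 63102). The difference was 1.06 points in the members, 1.02 points over all those CpGs and 0.406 points over those with at least 100 reads.

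Each CpG was compared between 2 libraries with Fisher's exact test, two-sided, on its methylated and unmethylated reads, and p was adjusted by the Benjamini-Hochberg method over all 1045368 CpGs that had 10 reads or more in every library. A call needed both a shift of at least 20 points and an adjusted p under 0.05, a size which a member near 5% cannot reach downward. In >3-division against control 7 members were called lower and 0 higher, where 3.05% of all CpGs tested were called lower and 0.0865% higher. In >3-division against 0-division the same counts were 7 lower and 0 higher, with a background of 3.22% lower and 0.0887% higher. In 1-division against control 1 member was called lower and 0 higher, with a background of 0.00153% lower and 0.00220% higher. In 0-division against control 0 members were called lower and 0 higher, with a background of 0.00631% lower and 0.00450% higher.

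Rules without the minimum of 20 points were added after the levels had been seen. With no minimum at all, 375 members were lower and 1 was higher in >3-division against control, where 3.75% of all CpGs tested were lower and 0.141% higher, and 6.71% of non-members with at least 100 reads were lower. In >3-division against 0-division 392 were lower and 0 higher, with a background of 4.16% lower and 0.152% higher. In 1-division against control 1 was lower and 19 were higher, with a background of 0.00220% lower and 0.00507% higher. In 0-division against control 0 were lower and 56 were higher, with a background of 0.00823% lower and 0.0126% higher. These counts cannot be set beside the background at equal depth, since no other autosomal CpG reached 1000 reads throughout.

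With the minimum replaced by a level at least 2-fold apart, 317 members in 45 runs were lower and 0 higher in >3-division against control, where 2.25% of all CpGs tested were lower and 0.0580% higher, and 3.46% of non-members with at least 100 reads were lower. In >3-division against 0-division 344 were lower and 0 higher, with a background of 2.52% lower and 0.0569% higher. In 1-division against control 1 was lower and 1 higher, with a background of 0.000670% lower and 0.00220% higher. In 0-division against control 0 were lower and 7 higher, with a background of 0.00440% lower and 0.00536% higher. All 7 lay in the longest run of the chromosome 17 block. One of them, at 39983161, had 15.5% in 0-division against 5.24% in control, with 1361 reads in 0-division and 4145 in control.

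Between control and 1-division, the counts of the members varied 7.67 times as much as read sampling alone gives, and 5.76 times without the 1 CpG called between these libraries, against 1.31 times over the 387567 CpGs tested with enough reads for the estimate. Any real difference between these 2 libraries is part of this excess, and 1 library per group cannot separate it from extra spread. For a given difference in level the factor also grows with coverage. Members were far deeper than the CpGs tested, so 7.67 and 1.31 do not compare like with like. Fisher's p allows for read sampling only, and is too small at these depths as far as the excess is extra spread. With all counts divided by the members' factor, 181 members were called 2-fold lower in >3-division than in control. Wilson 95% intervals below cover counting error only, since no molecular identifiers are named for these reads.

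With reads pooled by run, 67 of 70 runs were lower and 3 were higher in >3-division than in control, and for 57 lower runs and 1 higher run the 95% intervals stood apart. The median difference was -4.03 points. Pooling counts a read once for each member it covers, so the intervals of runs with several members are too narrow. The counts of intervals apart, here and below, are overstated to that extent. Some of the 70 runs had matching CpG spacing (described below), so they are not all independent measurements. Against 0-division, 67 of 70 runs were lower in >3-division. In 0-division, 52 runs were higher and 18 lower than control, with intervals apart for 34 higher and 1 lower. In 1-division, 41 were higher and 29 lower than control, with intervals apart for 20 higher and 3 lower.

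**Figure D4:**
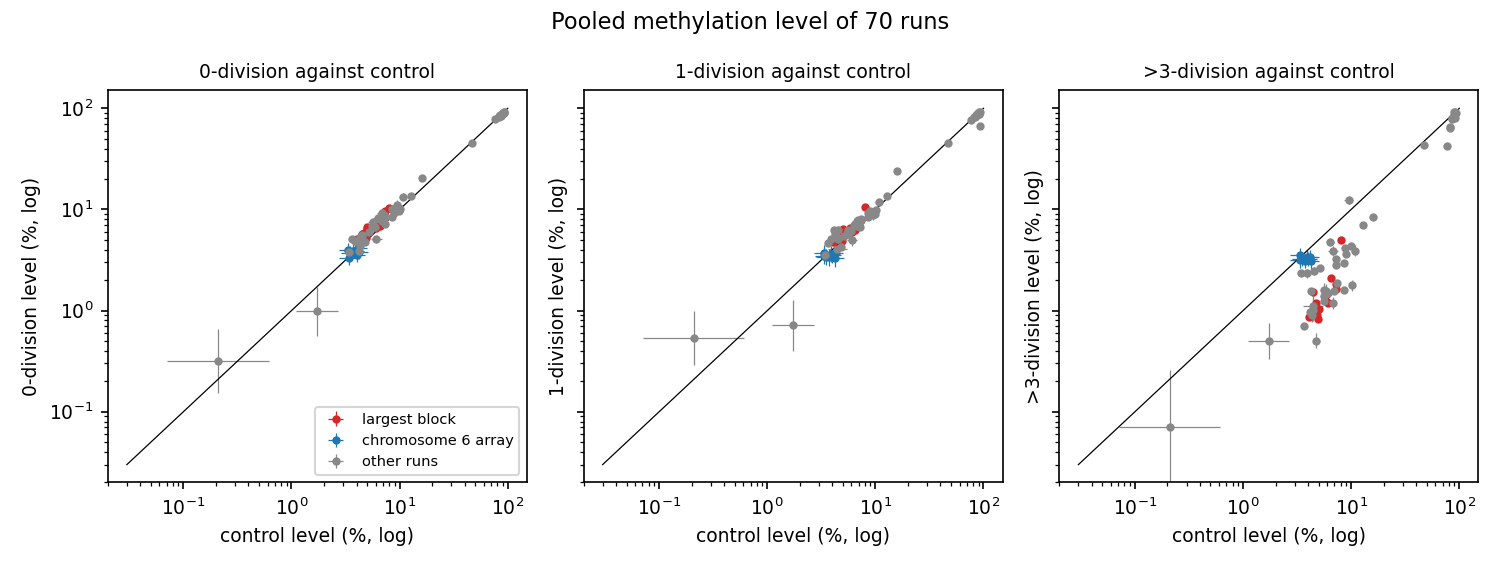
Pooled methylation level of each of the 70 runs in a doxycycline library against control, both in percent on log axes, with Wilson 95% intervals as bars and the line of equal levels. In the >3-division panel 67 of 70 runs lay below the line, while in the 0-division panel 52 lay above it.

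The largest difference was in a run on chromosome 11, 7 members over 280 bp from 3093350 to 3093629. Its pooled level was 76.6% in control (76.0 to 77.1%), 77.9% at 0 divisions, 77.3% at 1 division and 42.0% (41.1 to 42.9%) beyond 3 divisions. This is the run that held all 7 members called lower in >3-division, by -34.6 points against control and -35.9 points against 0-division over the run. Its 7 CpGs differed among themselves. At 3093430 the level was 5.39% in >3-division against 62.3% in control (adjusted p = 5.32e-232, Fisher's exact test), and 55 bp on, at 3093485, it was 60.2% in >3-division against 90.2% in control (adjusted p = 4.88e-133, Fisher's exact test).

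This run was also among the most thinly covered relative to control. Its mean coverage was 3740 reads in control MEFs, 3743 at 0 divisions, 3907 at 1 division and 1566 beyond 3 divisions, a depth ratio of 0.374 for >3-division over control. At 3093430, where the fall was widest in ratio, 1-division had 74.9% against 62.3% in control, with an adjusted p of 6.27e-17 by Fisher's exact test. The part of depth in these differences was not tested.

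Of the other members at high levels, 2 single CpGs on chromosome 5 stood next in size. The CpG at 15180585 had 82.2% in control MEFs, 83.4% at 0 divisions, 81.6% at 1 division and 63.5% beyond 3 divisions. The CpG at 14991152 had 82.7%, 82.5%, 81.3% and 65.3% in the same order. Their coverage was alike in >3-division and control, with 1872 and 1967 reads in >3-division against 1904 and 1840 in control. It was higher in the other libraries, with 3833 and 3732 reads in 0-division and 2679 and 2669 in 1-division. All 20 members at 80% or above in control averaged 80.9% in >3-division against 89.2% in control, and 19 of 20 were lower. The median difference was -4.84 points, against a mean of -8.26 points. Non-members with at least 100 reads in that range averaged 85.7% in >3-division against 89.6% in control, with a median difference of -2.92 points and a mean of -3.89 points, and 73.7% of them were lower.

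The deepest member, on chromosome 2, belonged to this group. It had 89.8% in control MEFs, 90.5% at 0 divisions, 89.5% at 1 division and 85.0% beyond 3 divisions, and its depth ratio for >3-division over control was 0.334, the lowest of all runs. The next deepest CpGs were low in level. The CpG at chromosome 17 position 39983369 had 25520 reads and 6.29% in control MEFs, 34648 reads and 6.61% at 0 divisions, 28027 reads and 5.84% at 1 division and 34702 reads and 0.962% beyond 3 divisions. On chromosome 1, the pair at 197067842 and 197067872 averaged 33400 reads in >3-division and 20768 in control, with a pooled 1.55% in >3-division against 6.94% in control.

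Few runs went the other way in >3-division. The single CpG at chromosome 1 position 133470531 had 12.5% (11.4 to 13.7%) in >3-division against 9.49% (8.57 to 10.5%) in control, with an adjusted p of 0.00342 by Fisher's exact test. It was the 1 member called higher without the minimum difference. A chromosome 11 CpG at 18237239 had 92.3% in >3-division against 90.3% in control, with an adjusted p of 0.262 by Fisher's exact test. The third was a pair at chromosome 6 position 47722291, 3.55% in >3-division against 3.38% in control, a difference within the counting intervals.

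In the 1-division library 1 CpG stood alone. At chromosome 1 position 22881351 the level was 91.4% in control MEFs, 89.4% at 0 divisions, 40.9% at 1 division and 87.0% beyond 3 divisions. In 1-division it lay -50.6 points from control (adjusted p = 1.56e-203, Fisher's exact test). The next member, 12 bp away at 22881363, had 95.1%, 91.3%, 91.5% and 91.9% in the same order. The first CpG had 2599 reads in 1-division and 1165 in control, a depth ratio of 2.22, and its neighbour had 2595 and 1163. Reads at both CpGs were thus more numerous in 1-division while the level differed at 1 of them.

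The largest gain over control in the 0-division and 1-division libraries was in 4 members of chromosome 5, from 147072856 to 147072869. They had 16.0% in control MEFs, 20.5% at 0 divisions, 24.2% at 1 division and 8.47% beyond 3 divisions. Mean coverage was 2715 reads in control MEFs, 2205 at 0 divisions, 1349 at 1 division and 2529 beyond 3 divisions, with a depth ratio of 0.495 for 1-division over control. The members of the same block before them, at 147072587 to 147072752, were low throughout, with 5.16% in control.

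Neighbours mostly had similar levels, but so did the members as a whole, with 384 of 437 under 10% in control. Pairs that are not neighbours were not compared, so the counts below do not show likeness particular to neighbours. Of 367 pairs of adjacent members within runs, 348 differed by less than 5 points in control, and coverage lay within 5% in 69.2% of the pairs in >3-division and 67.6% in control. A single pair differed by more than 50 points in control, at chromosome 14 positions 18330402 and 18330426, 24 bp apart. The first had 1.57% in control MEFs, 1.87% at 0 divisions, 2.28% at 1 division and 2.35% beyond 3 divisions. The second had 90.3%, 88.7%, 88.4% and 83.3%. The contrast between these neighbours held in all 4 libraries.

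Several members recurred at other positions with the same spacing of listed CpGs. Between blocks, 26 pairs shared at least 7 listed CpGs at 1 offset and at least 80% of the CpGs listed in one of the blocks, and in 23 pairs all of its CpGs. Of the 26 pairs, 21 were among blocks of 1 array on chromosome 6, and 5 lay elsewhere. On chromosome 6, all 19 CpGs listed from 3150856 to 3151575 had a counterpart at chromosome 17 positions 39983712 to 39984431, inside the largest block. For 4 of those, the runs at chromosome 6 position 3151421 and chromosome 17 position 39984277, mean coverage was 10948 and 10927 reads in control MEFs, 13516 and 13738 at 0 divisions, 11160 and 10957 at 1 division and 14699 and 14642 beyond 3 divisions. In the other 6 matched members, from 3150877 on chromosome 6 and from 39983733 on chromosome 17, coverage was not equal: it was 8315 and 13196 reads in >3-division, against 5149 and 7206 in control. Over all 10 matched members the chromosome 6 coverage was 0.789 times that of chromosome 17 in >3-division and 0.859 times in control. Levels at the first 4 were 1.25 and 1.21% in >3-division against 5.61 and 5.99% in control. How the authors placed reads that match several positions is not given in the sources used here, so 2 such positions are not 2 independent measurements.

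Another such pair of blocks lay on chromosomes 14 and 10, where all 11 CpGs listed from 105115011 to 105115180 on chromosome 14 had a counterpart, in reverse order. A run on chromosome 15 shared with them the spacing of 3 members, 4 and 9 bp apart. The blocks on chromosomes 14 and 15 also matched overlapping stretches of chromosome 12. For chromosome 14, 9 of 11 listed CpGs matched 100883670 to 100883839, in reverse order. For the chromosome 15 block, 16 of 19 matched 100883355 to 100883822. The 3 members from 105115071 on chromosome 14, the 3 from 104675482 on chromosome 10 and the 3 from 86025642 on chromosome 15 had a mean coverage of 3429, 3415 and 3428 reads in >3-division, against 2284, 2279 and 2258 reads in control. Their levels were 1.59, 1.40 and 1.57% in >3-division against 5.63, 5.63 and 5.89% in control. The Wilson intervals of the 3 placements overlapped in both libraries. The same spacing of 3 CpGs also occurred in the chromosome 17 block, from 39985411, with 0.448% in >3-division against 4.92% in control and a mean of 15259 reads in >3-division against 11879 in control. On chromosome 8, the 3 members from 19783826 and the 3 from 19893896 had the same spacing read in opposite directions, with 90.6 and 91.0% in >3-division against 92.2 and 91.8% in control.

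The clearest repeat was an array on chromosome 6, where 8 runs of 2 members, each pair 14 bp apart, lay 4260 to 5598 bp from the next between 47690194 and 47722305. The run at 47707982 shared the 14 bp gap but was in none of the matched pairs of blocks counted above. Mean coverage was alike across the 8 runs within each library: 1200 to 1314 reads in control MEFs, 2129 to 2280 at 0 divisions, 1573 to 1706 at 1 division and 2126 to 2254 beyond 3 divisions. Pooled over the 8 runs the level was 3.77% in control MEFs, 3.79% at 0 divisions, 3.51% at 1 division and 3.26% beyond 3 divisions. The >3-division level was 0.852 times control at the median of the 8 runs, against 0.235 at the median of the 14 runs in the chromosome 17 block. The depth ratio of >3-division over control had a median of 1.51 in the array (1.46 to 1.67) and of 1.33 in the block (0.634 to 1.92), and that of >3-division over 0-division was 0.905 in the array and 1.33 in the block. Whether the sets differ was not tested.

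**Figure D5:**
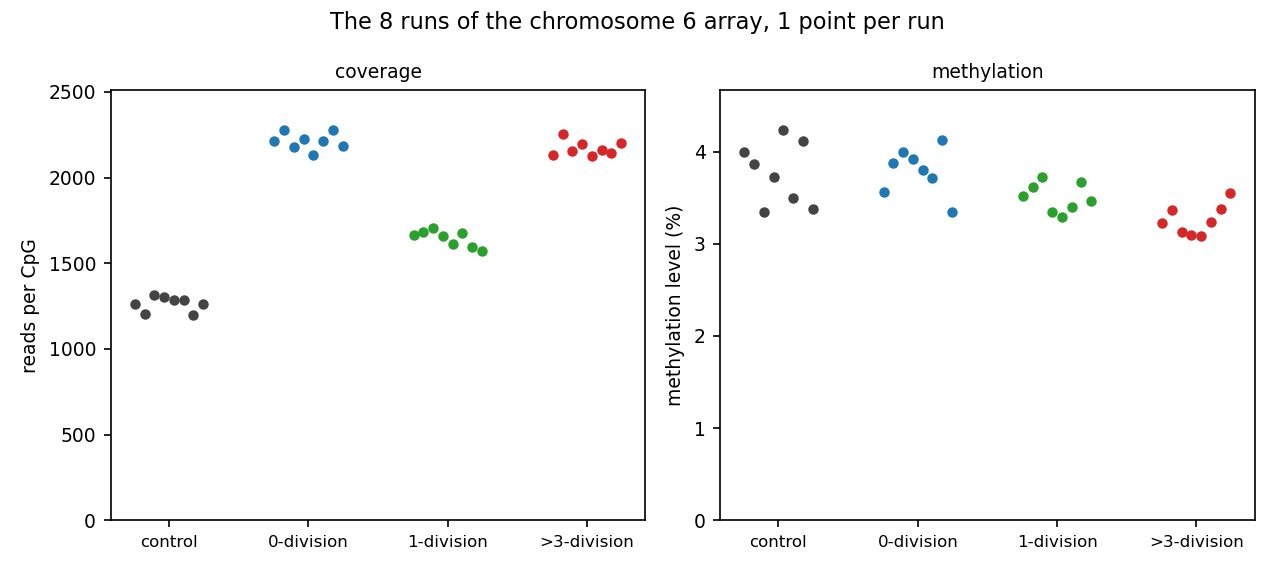
Mean reads per CpG (left) and pooled methylation level in percent (right) of the 8 runs of the chromosome 6 array in each library, 1 point per run in order of position. Within a library the coverage of the 8 runs hardly varied, with 2126 to 2254 reads in >3-division and 1200 to 1314 in control, and levels spread over 3.08 to 3.55% in >3-division and 3.35 to 4.24% in control.

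Relative depth varied widely between runs. The depth ratio of >3-division over control had a median of 1.35 over the 70 runs and ranged over 0.334 to 3.74, being above 1.5 in 19 runs. It was highest at the single CpG at chromosome 2 position 22444218, with 4614 reads in >3-division against 1100 in control, and next at the 4 members from 61963263 on chromosome 3, with a mean of 4738 reads in >3-division against 1140 in control and a ratio of 3.71. Levels at both were low, 0.498% in >3-division against 1.73% in control at the first, and 1.48% in >3-division against 6.07% in control at the second. The median over runs was 1.16 for 0-division over control and 1.06 for 1-division over control. Over the 437 members, the medians were 0.928 for 0-division, 1.06 for 1-division and 1.33 for >3-division over control, so the 0-division value stood on the other side of 1.

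A few members were almost free of methylated reads. The CpG at chromosome 17 position 36368264 had levels of 0.0754% in control MEFs, 0.0710% at 0 divisions and 0.0360% beyond 3 divisions, and at 1 division 0 of 2303 reads were methylated, which allows up to 0.167% by the Wilson interval. The CpG at chromosome 6 position 42299970 had 0.0477% in >3-division against 0.0893% in control. Both lay far below the members' median in every library.

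The shortest spacing patterns were shared most. The 3 patterns found in the most runs were gaps of 2 and 4 bp, in 8 runs, of 3 and 3 bp, in 6 runs, and of 3 and 4 bp, in 6 runs, all short enough to recur in unrelated CpG-dense sequence. Of 42 runs with at least 3 members, 10 had their whole spacing within another run. One of these, 7 members from 56071587 on chromosome 9, recurred in the 12-member run from 169270469 on chromosome 1, and over these 7 CpGs the levels were 2.46% and 2.85% in >3-division against 4.51% and 5.31% in control.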

How the data were processed

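RRBS reads were measured in 4 libraries, 1 per group. The authors deposited, for each library, CpG positions with 2 whole-number read counts. The order is not stated in the files: among CpG-dense CpGs of control (at least 12 listed CpGs within 100 bp) 63.9% had a first count of 0 and 1.92% a second of 0, so the first was taken as methylated. The build is mm9, per the submitters' processing notes, and positions are printed as deposited. The aligner, the methylation caller, the counting base of positions (0 or 1) and the handling of reads that match several positions were not given in the sources used here. No mm9 annotation or genome was used, so no gene or sequence is given.

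Levels were methylated over all reads. Members needed 1000 reads in all 4 libraries, and calls used Fisher's exact test with numpy 2.4.6, pandas 2.3.3, scipy 1.17.1 and numba 0.67.0, with Benjamini-Hochberg adjustment, checked on simulated data. A depth ratio is the share of a library's reads at a CpG or run over its share in the other library. Intervals are Wilson 95%, and those of a run count a read once for each member it covers. Runs are named by a fixed rule: the 10 with the most members, the 5 deepest members, the 5 largest gains and losses in each of 4 comparisons, the 5 highest and lowest depth ratios of >3-division over control, and the 3 most shared spacings; others named were chosen after their values were seen. Members, rules and lists were chosen with earlier results of these data known. Alternatives varied the minimum difference, coverage, member threshold, thinning, overdispersion, weighting, chromosomes, joining distance and depth scaling.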

Additional observations from a re-analysis of the deposited data

Results flagged for a closer look

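The chromosome 11 run at 3093350 differed between the doxycycline libraries: against control the >3-division library moved by -34.6 points and the 0-division library by 1.34 points, so these effects are -35.9 points apart. All 7 members were called lower in >3-division than in 0-division by Fisher's exact test. The depth ratio to control was 0.374 in >3-division and 0.976 in 0-division, and its part was not tested.

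The chromosome 1 CpG at 22881351 differed between the 1-division and 0-division libraries by -48.5 points, with 40.9% in 1-division against 89.4% in 0-division (unadjusted p = 5.57e-188, Fisher's exact test between the libraries). The depth ratio to control was 2.22 in 1-division and 0.968 in 0-division, and its part was not tested.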

How the results depend on the processing

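No paired analysis was possible because each group has 1 library and the labels carry no replicate numbers. Calls in 0-division against control (0) became 1 at a minimum of 10 points, 1 with members from 500 reads, 56 with no minimum difference and 7 at 2-fold. Calls in 1-division against control (1) became 2 at 10 points, 0 with members from 2000 reads, 20 with no minimum and 2 at 2-fold. Calls in >3-division against control (7) became 11 at 10 points, 16 from 500 reads, 2 from 2000 reads, 376 with no minimum, 317 at 2-fold, and 181 at 2-fold with counts divided by the members' overdispersion. Calls in >3-division against 0-division (7) became 28, 17, 2, 392, 344 and 227 in the same order. The rules with no minimum, at 2-fold and with that overdispersion, leaving out the largest block, and levels of CpGs with 1000 reads in control, were chosen after seeing the data.

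The mean difference of >3-division minus control, -4.32 points, was -6.07 with reads pooled, -4.47 per run, -4.58 without the longest run, -4.67 from 500 reads, -4.10 from 2000 reads, -4.95 without the largest block and -4.61 over CpGs with 1000 reads in control. For >3-division minus 0-division, -5.32 points, these were -6.29, -5.08, -5.44, -5.26, -5.07, -5.57 and -5.64. For 0-division minus control, 0.997 points, they were 0.219 pooled, 0.616 per run, 0.853 without the longest run, 0.591 from 500 reads and 0.612 without the largest block. For 1-division minus control, 0.494 points, the sign turned to -0.613 pooled and -0.127 per run. The value was 0.173 from 500 reads, 0.279 without the largest block and 0.392 over CpGs with 1000 reads in control. In the pooling, the chromosome 2 CpG at 98506659 had 55631 reads at 89.8% in control and 22110 at 89.5% in 1-division. By run, 41 were higher and 29 lower, and the 2 members from chromosome 1 position 22881351 differed most, by -27.1 points. The part of either in the turned signs was not tested.

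Mean levels, in the order control, 0-division, 1-division and >3-division, were 8.82, 9.04, 8.21 and 2.75% with reads pooled, 20.5, 21.1, 20.4 and 16.1% per run, 11.1, 11.9, 11.6 and 6.50% without the longest run, 19.7, 20.3, 19.9 and 15.1% from 500 reads, 7.08, 8.05, 7.61 and 2.98% from 2000 reads, 10.7, 11.7, 11.2 and 6.41% with all chromosomes, 15.9, 16.5, 16.2 and 11.0% without the largest block, and 24.4, 25.5, 24.8 and 19.8% over CpGs with 1000 reads in control. The 70 runs became 203 from 500 reads and 46 from 2000 reads. The median depth ratio over CpGs with 1000 reads in control, whatever the others held, was 0.877 for 0-division (members had 0.928), 0.982 for 1-division (below 1, where members had 1.06) and 1.14 for >3-division over control, and scaling by the median coverage gave 1.57 for >3-division (members had 1.33). The other 42 values under alternatives kept their direction and stayed within the limits set for an unchanged value.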

Other observations

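Depth past 1000 reads was not shared evenly. Of 1045 autosomal CpGs with at least 1000 reads in any library, 311 reached it in exactly 1 library, 199 in 2, 98 in 3 and 437 in all 4. A group of 259 reached it in the >3-division library alone, with a median of 1508 reads in >3-division against 727 in control, and a median level of 65.5% in >3-division against 76.9% in control. In control 125 of these were at 80% or above and 111 were under 20%. Another 28 reached it in all libraries but >3-division, with a median of 324 reads in >3-division against 2698 in control. Of these 28, 23 were at 80% or above in control, and the median level was 82.1% in >3-division against 86.6% in control.

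On chromosome X, 3 CpGs had at least 1000 reads in all 4 libraries. Their mean level was 91.3% in control MEFs, 90.5% at 0 divisions, 90.9% at 1 division and 89.1% beyond 3 divisions.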
